A study of Mus musculus with 18 samples.

Results

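The cytochrome P450 (Cyp) genes of families 1, 2 and 3 were followed in mouse liver after knockdown of Mdm2, the ubiquitin ligase that holds p53 in check. Members were all rows whose symbol starts with Cyp1, Cyp2 or Cyp3 and continues with a lower-case letter, without Cyp2c70 and without symbols marked as pseudogenes, which gave 61 of 33235 genes. Livers came from mice given a GalNAc-coupled antisense oligonucleotide (ASO) against Mdm2, labelled as Mdm2 knockdown, or a GalNAc-coupled control ASO, labelled WT. Each ASO was given on a diet called HFHC in the labels or on CDAHFD, a high-fat diet deficient in choline that is used to cause steatohepatitis. GalNAc is a sugar taken up by hepatocytes, so the knockdown was aimed at these cells while whole liver was sequenced. Counted libraries were 3 with the Mdm2 ASO and 4 with the control ASO on HFHC, and 5 with the Mdm2 ASO and 5 with the control ASO on CDAHFD. On HFHC, Mdm2 ASO replicates 6 and 7 held the same value for every gene and counted as 1 library, called replicate 6 here. Sex, age, ASO dose and duration are not given in the labels, nor whether replicates were separate animals, so p-values measure the spread between these samples.

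P450 enzymes of families 1 to 3 sit in the membrane of the endoplasmic reticulum and use a heme iron, with electrons passed on from P450 oxidoreductase, to insert oxygen into drugs, toxins, steroids and fatty acids. In liver they are made by hepatocytes, many of them mainly around the central vein. The aryl hydrocarbon receptor (AhR) induces family 1 genes, and the nuclear receptors CAR and PXR induce many genes of families 2 and 3. Several Cyp2 and Cyp3 genes of mouse liver are also male- or female-biased.

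The subfamily whose response differed most often between the diets was Cyp2d, and the promoters of 4 of its genes are shown to let their shared start region be seen beside the values below. Each is the stretch of 250 bases before the gene's annotated start, 5′ to 3′ on the gene's strand, from RefSeq on GRCm38.p6. Cyp2d9 lies at chr15:82452127-82452376 on the plus strand. Cyp2d10 (chr15:82407195-82407444), Cyp2d40 (chr15:82764123-82764372) and Cyp2d26 (chr15:82794246-82794495) lie on the minus strand. Capitals mark a run shared by 3 promoters, a TATA box match and, in Cyp2d26, an HNF1 half-site match.
Cyp2d9: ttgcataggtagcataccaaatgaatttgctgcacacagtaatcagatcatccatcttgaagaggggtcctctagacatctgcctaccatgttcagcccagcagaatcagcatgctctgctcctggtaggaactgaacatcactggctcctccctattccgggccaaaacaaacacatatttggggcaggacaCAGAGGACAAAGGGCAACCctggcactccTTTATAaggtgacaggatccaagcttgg
Cyp2d10: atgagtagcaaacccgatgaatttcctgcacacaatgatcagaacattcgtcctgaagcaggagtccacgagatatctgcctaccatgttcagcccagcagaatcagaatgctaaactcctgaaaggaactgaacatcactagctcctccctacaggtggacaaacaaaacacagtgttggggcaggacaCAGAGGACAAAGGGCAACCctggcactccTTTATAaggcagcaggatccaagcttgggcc
Cyp2d40: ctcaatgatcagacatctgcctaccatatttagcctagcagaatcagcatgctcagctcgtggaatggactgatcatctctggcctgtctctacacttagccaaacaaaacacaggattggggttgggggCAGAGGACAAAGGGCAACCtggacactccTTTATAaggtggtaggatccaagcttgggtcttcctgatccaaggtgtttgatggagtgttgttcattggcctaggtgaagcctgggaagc
Cyp2d26: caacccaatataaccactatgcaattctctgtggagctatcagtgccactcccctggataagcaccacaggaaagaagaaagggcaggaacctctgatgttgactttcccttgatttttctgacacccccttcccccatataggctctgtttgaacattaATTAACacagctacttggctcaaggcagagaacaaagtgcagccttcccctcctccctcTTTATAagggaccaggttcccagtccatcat

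In an end-to-end alignment of the Cyp2d9 and Cyp2d10 promoters that allowed gaps, identical letters made up 83.6% of the 250 bases. The 19-base run in capitals, found by comparing Cyp2d9, Cyp2d10 and Cyp2d40, begins 57, 60 and 120 bases before their starts and occurs in 3 promoters of the RefSeq table, those of these 3 genes. The TATA box letters TATAAA, searched on both strands, were found in all 4 as TTTATA, beginning 28 bases before the start in Cyp2d9, 31 in Cyp2d10 and in Cyp2d26, and 91 in Cyp2d40, whose annotated start lies further downstream of the same block. Of 49 member promoters, 49.0% held TATAAA, against 12.4% of 32851 promoters in the table. The HNF1 half-site GTTAAT was found in 12.2% of member promoters and 6.43% of all promoters. The CAR/PXR half-site AGTTCA was found in 14.3% and 11.8%, the nuclear receptor half-site AGGTCA in 24.5% and 14.0%, and the AhR core GCGTG in 16.3% and 28.2%, members first. These searches also covered both strands, the motif matches describe letters and not binding, and 52 of 61 members had a promoter in the table, 49 of them a single one.

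Mdm2 fell on both diets. Its normalized counts, which are reads per gene divided by 1 scaling factor per library, were 420.4, 362.2 and 304.1 in Mdm2 ASO livers on HFHC, against 907.3, 954.2, 963.2 and 956.4 in control ASO livers. On CDAHFD they were 860.8, 566.3, 646.2, 563.8 and 598.3 in Mdm2 ASO livers, against 1443, 1572, 1516, 1650 and 1644 in control ASO livers. No library of 1 group reached the other on either diet, and 38.3% and 41.3% of the control level were left on HFHC and CDAHFD. For Mdm2 ASO over control ASO the log2 fold change was -1.39 on HFHC (SE 0.11, limma-trend adjusted p = 1.1e-05) and, on CDAHFD, -1.29 (SE 0.11, adjusted p = 3.07e-05). A gene is said below to have risen or fallen only where its limma-trend adjusted p over all genes of the diet's table was under 0.05, and log2 fold changes are differences of log2(normalized count + 0.5), which understates the change of low genes.

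Libraries held 17770748 to 18798144 reads on HFHC and 22376178 to 31453055 on CDAHFD, and the members took 1.63 to 2.27% of them. Levels were compared only inside a diet because the tables were normalized separately. Mdm2 ASO replicate 6 on HFHC stood apart in the share of reads on albumin (Alb), 9.59% against 5.66 and 5.92% in the other 2 Mdm2 ASO livers and 4.11 to 4.73% in control ASO livers. Of 5 red blood cell markers all rose on HFHC, as did 6 of 8 monocyte and neutrophil markers, against 16.8% of all genes. The summed level of the monocyte and neutrophil markers ran between 10690 and 13080 in Mdm2 ASO livers and between 2744 and 5285 in control ASO livers. None of the 13 hepatocyte markers analysed passed on HFHC by limma-trend (1 at an unadjusted p under 0.05, 1 by edgeR and 4 by DESeq2). Of their log2 fold changes there, 9 were below 0, with a median of -0.13. Their summed level ran between 1695000 and 2461000 in Mdm2 ASO livers and between 1575000 and 1954000 in control ASO livers. Alb alone had 1670000, 988700 and 1118000 of this in Mdm2 ASO livers, against 754800 to 968800 in control ASO livers. Its Mdm2 ASO livers thus all lay above the controls (log2 fold change 0.52, SE 0.72). For Apoa1 (-0.37, SE 0.24) and Apoa2 (-0.62, SE 0.27) all Mdm2 ASO livers lay below the controls. Not passing therefore does not mean that these markers were unchanged.

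Of the 61 members, 48 were tested on both diets, having reached a normalized count of 1 in enough libraries to fill the smaller group, and 13 on neither. The 13 were Cyp2b19, Cyp2b23, Cyp2c65, Cyp2c66, Cyp2d34, Cyp2j7, Cyp2j11, Cyp2j12, Cyp2j13, Cyp2w1, Cyp3a16, Cyp3a41a and Cyp3a41b, and 5 of them had no read in any library. The most abundant message per length was Cyp2e1, an enzyme of ethanol and paracetamol oxidation, which took at least 36.8% of all member reads in every library. Its level per kilobase of exon was 63160 normalized counts in Mdm2 ASO and 71320 in control ASO livers on HFHC, and 112800 in Mdm2 ASO and 96480 in control ASO livers on CDAHFD. Next on this per-length scale in Mdm2 ASO livers on HFHC stood Cyp3a11 with 10600, Cyp2d26 with 8265 and Cyp3a25 with 5847. In Mdm2 ASO livers on CDAHFD the next were Cyp2d26 with 17290, Cyp2d10 with 13880 and Cyp2a5 with 10830. Cyp2d13, with a mean of 16730 normalized counts in those livers, had no exonic length and was not ranked. Lengths joined all annotated exons of a gene, which lowers the rank of genes with long annotations. Cyp2e1 itself passed on neither diet, with log2 fold changes of -0.18 on HFHC (adjusted p = 0.647) and 0.24 on CDAHFD (adjusted p = 0.45), and its groups overlapped on both diets.

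On HFHC, 12 of the 48 tested members fell (25.0%) and 2 rose (4.17%), against 13.8% of all 17441 genes that fell and 16.8% that rose (30.6% in either direction). The median log2 fold change of the 48 was -0.28, beside -0.01 over all genes. On CDAHFD, 5 members rose (10.4%) and 5 fell (10.4%), against 6.12% of all 16803 genes that rose and 6.86% that fell (13.0% in either direction), and the members' median was 0.10, beside -0.00 over all genes. Cyp2c38, Cyp2c39, Cyp2f2 and Cyp2j9 fell on both diets, which is 33.3% of the members that fell on HFHC and 80% of those that fell on CDAHFD, and no member rose on both or moved in opposite directions past the threshold. Across the diets, which share no samples, 31 of the 48 fold changes had the same sign. No share over all genes was worked out to set beside this count or beside the members that fell on both diets. The HFHC count of fallen members ran between 5 and 15 when libraries were left out in turn, with 6 without control ASO replicate 4, 7 without Mdm2 ASO replicate 6 and 5 without Mdm2 ASO replicate 9, and it was 8 with libraries centred on hepatocyte markers.

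**Figure D1:**
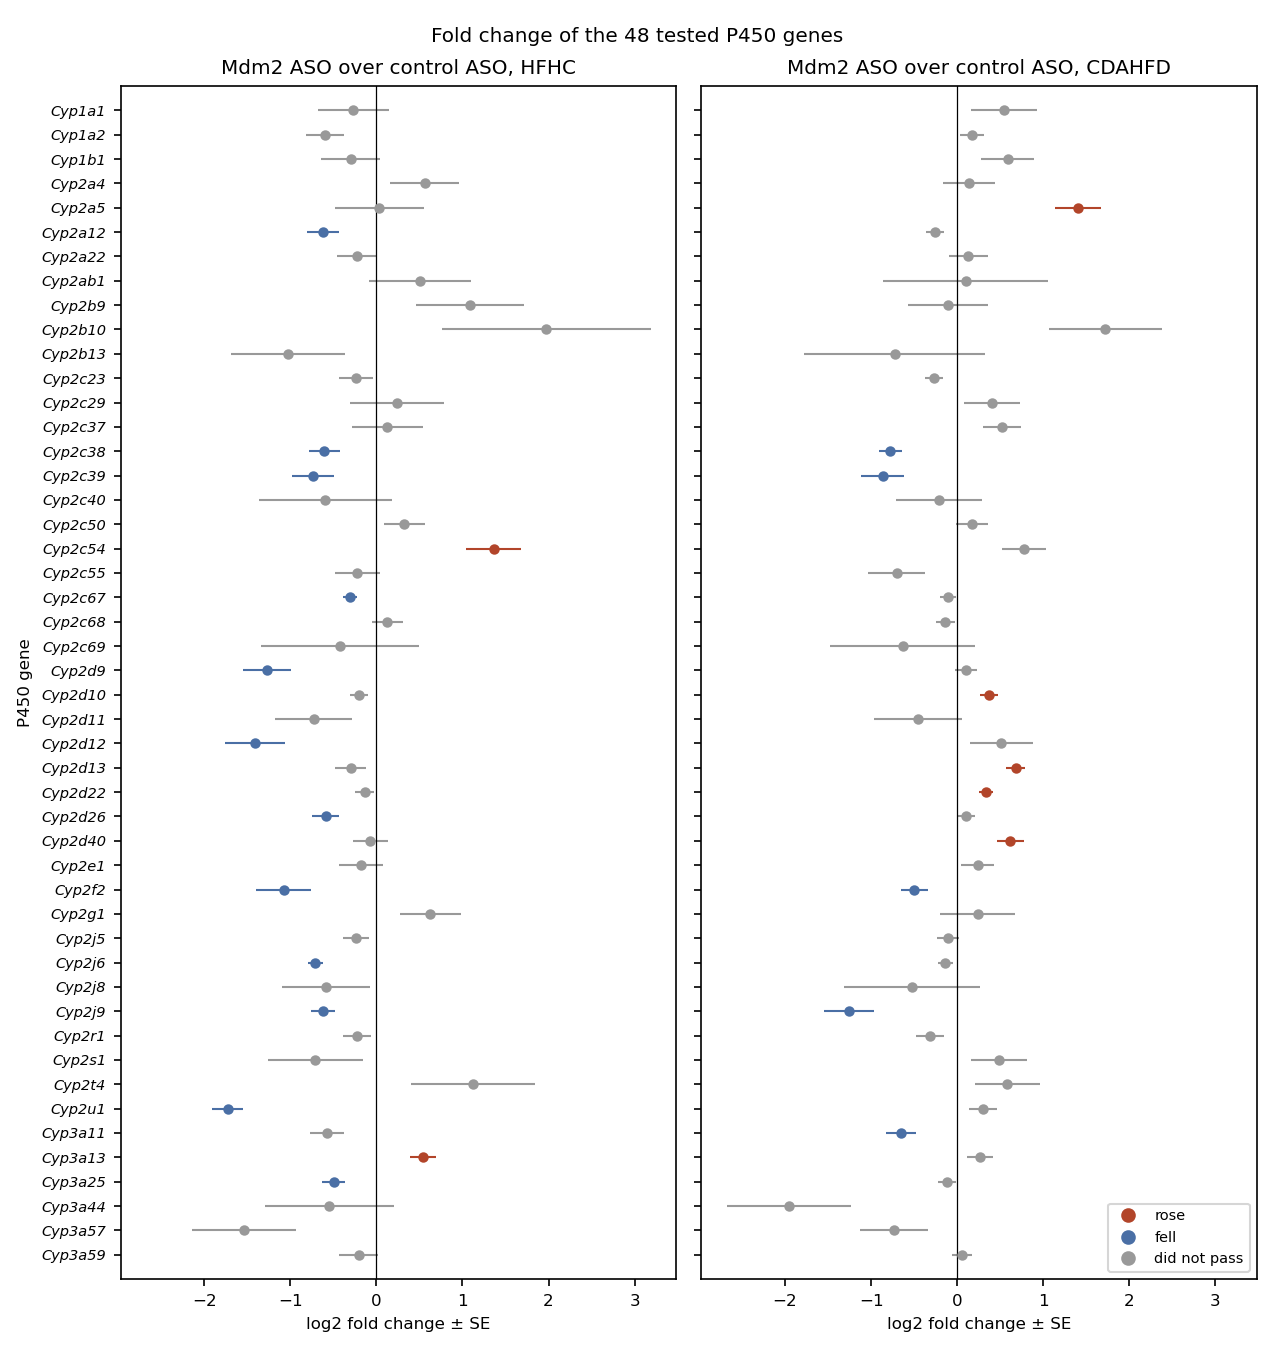
Log2 fold change (Mdm2 ASO over control ASO, horizontal axis) of the 48 tested P450 genes on HFHC (left) and CDAHFD (right), with bars for the SE and colour for genes that rose, fell or did not pass at an adjusted p under 0.05. On HFHC 12 points lie left of 0 as fallen and 2 right of it as risen, and on CDAHFD 5 lie on each side.

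The response to the Mdm2 ASO differed between the diets for 9 of the 48 members (18.8%), each with a more positive fold change on CDAHFD, against 9.83% of all 16333 genes with a more positive and 13.6% with a more negative change there (23.5% in either direction). These 9 were Cyp2u1, Cyp2d12, Cyp2d9, Cyp2d13, Cyp1a2, Cyp2d26, Cyp2j6, Cyp2d10 and Cyp2d22, and 6 of them belong to the Cyp2d subfamily. No member had a more negative change past the threshold by limma-trend, edgeR or DESeq2, and 0 did at an unadjusted p under 0.05, where 12 were more positive. Without Mdm2 ASO replicate 10 on CDAHFD, Cyp2j9 did. With a replicate block, which matched libraries of the diets by number, 6 members had a more positive change, 5 of the 9 and Cyp1b1. Cyp1a2, Cyp2d10, Cyp2d22 and Cyp2d26 did not pass with it. The labels do not name same-numbered libraries as pairs. CDAHFD replicates 3, 7 and 8 had no counted HFHC library of their number, so they added nothing to the difference in that fit. With hepatocyte marker centring 6 of the 9 passed, without Cyp1a2, Cyp2d12 and Cyp2d22.

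**Figure D2:**
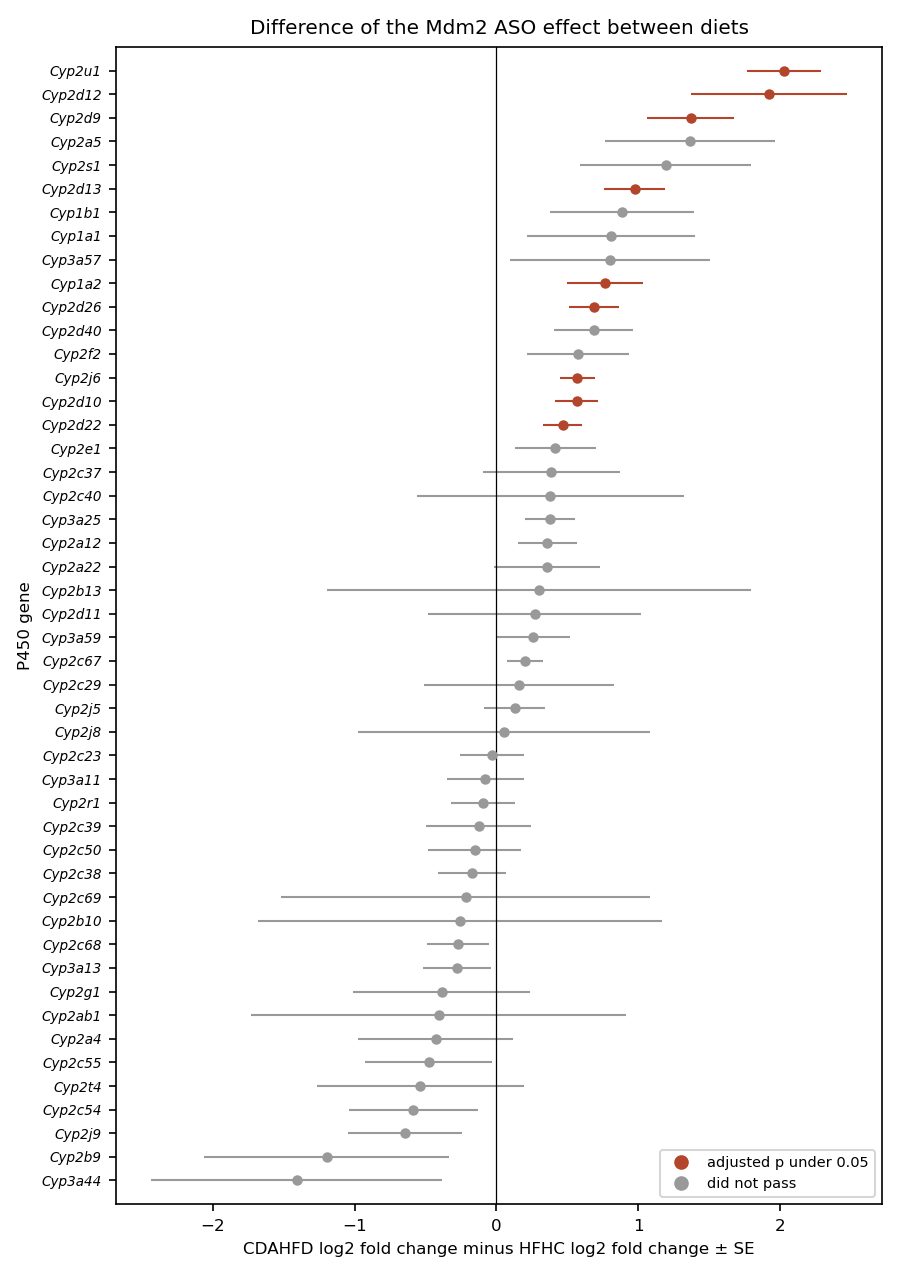
Difference of the 2 log2 fold changes, CDAHFD effect minus HFHC effect (horizontal axis), for the 48 tested P450 genes ordered by size, with bars for the SE. The 9 genes past an adjusted p of 0.05 all lie right of 0, led by Cyp2u1 at 2.03 and Cyp2d12 at 1.92.

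The Cyp2d genes responded to the Mdm2 ASO in different ways on the diets. On HFHC 3 of 8 tested Cyp2d genes fell and none rose, on CDAHFD 4 of 8 rose and none fell, and all 8 differences between the diets were positive, 6 of them past the threshold. Over all genes 13.8% fell on HFHC, 6.12% rose on CDAHFD and 9.83% had a positive difference past the threshold. Cyp2d was singled out as the subfamily with the most called differences in these data, so the last share is no independent comparison. By edgeR and by DESeq2 the numbers past the threshold were the same, while the 6 differences became 3 with a replicate block and 4 with hepatocyte marker centring. The summed level of the 9 listed Cyp2d genes ran between 37450 and 44090 normalized counts in Mdm2 ASO livers on HFHC and between 54110 and 60730 in control ASO livers, with no overlap. On CDAHFD the sum ran between 88590 and 104300 in Mdm2 ASO livers and between 70870 and 91450 in control ASO livers, with overlap. In bulk liver, fewer cells of a type and less RNA per cell cannot be told apart. In the same HFHC libraries that gave low Cyp2d sums the immune and blood marker sums above were high, and their part in the result was not tested.

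Cyp2d9, a steroid hydroxylase known as male-biased in mouse liver and the first of the promoters shown, fell on HFHC. It had 2591, 4058 and 3947 normalized counts in Mdm2 ASO livers on HFHC, against 14620, 6859, 6099 and 8002 in control ASO livers, so that no Mdm2 ASO liver reached the lowest control. This left 39.7% of the control mean (log2 fold change -1.27, SE 0.28, adjusted p = 0.008). Its counts on CDAHFD were 15680, 17090, 11300, 15450 and 12120 in Mdm2 ASO livers, against 14860, 10940, 12300, 14050 and 14280 in control ASO livers, with groups that overlapped and a log2 fold change of 0.10 (adjusted p = 0.659). The difference of 1.37 between the diets (SE 0.31, adjusted p = 0.00299) passed in all alternatives.

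Cyp2d26 had the highest level per kilobase of the Cyp2d genes with an exonic length, and its promoter held the HNF1 half-site match. It showed a smaller change of the same kind. Its counts were 12550, 14820 and 17060 in Mdm2 ASO livers on HFHC, against 18140, 25670, 24390 and 21060 in control ASO livers, all of them higher. The log2 fold change was -0.59 (SE 0.16, adjusted p = 0.019), and the call was lost without control ASO replicate 4 or Mdm2 ASO replicate 6 or 9 (adjusted p up to 0.0624). On CDAHFD it averaged 30980 ± 1843 in Mdm2 ASO and 28960 ± 2810 in control ASO livers (SD, n = 5 each), with a log2 fold change of 0.10 (adjusted p = 0.566). The difference between diets was 0.69 (adjusted p = 0.00805, and 0.0872 with a replicate block).

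Cyp2d12, a member with few reads, also fell on HFHC. It had 5.56, 8.51 and 8.08 normalized counts in Mdm2 ASO livers, against 23.7, 12.3, 21.6 and 26.0 in control ASO livers, without overlap (log2 fold change -1.41, SE 0.35, adjusted p = 0.0138). It averaged, on CDAHFD, 91.6 ± 45.7 in Mdm2 ASO livers and 64.0 ± 33.2 in control ASO livers (SD, n = 5 each), overlapping widely and not past the threshold (0.51, adjusted p = 0.381). The difference was 1.92 (adjusted p = 0.0163, and 0.0542 with hepatocyte marker centring).

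Cyp2d13 and Cyp2d22 rose on CDAHFD without overlap between the groups. Cyp2d13 had 16810, 17090, 20460, 14420 and 14890 normalized counts in Mdm2 ASO livers on CDAHFD, against 12140, 9251, 9156, 10950 and 10700 in control ASO livers (log2 fold change 0.68, SE 0.11, adjusted p = 0.00211). Cyp2d22 had 9692, 9987, 10340, 10210 and 10500 in Mdm2 ASO livers, against 9254, 7174, 7442, 8444 and 8137 in control ASO livers (0.33, SE 0.08, adjusted p = 0.02). Its values in Mdm2 ASO livers lay close together, and its call was lost without control ASO replicate 2 (adjusted p = 0.0601). On HFHC neither passed, with log2 fold changes of -0.30 for Cyp2d13 (adjusted p = 0.242) and -0.14 for Cyp2d22 (adjusted p = 0.406). The differences between diets were 0.98 for Cyp2d13 (adjusted p = 0.00268) and 0.47 for Cyp2d22 (adjusted p = 0.0191). The Cyp2d22 difference was lost without Mdm2 ASO replicate 6 or 9 on HFHC (adjusted p up to 0.0664) and with hepatocyte marker centring or a replicate block (adjusted p up to 0.109).

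Cyp2d10 and Cyp2d40, the other promoters shown, rose on CDAHFD with overlapping groups. Cyp2d10 had 24700, 24630, 22350, 21940 and 20790 normalized counts in Mdm2 ASO livers, against 21090, 17110, 15110, 18940 and 16780 in control ASO livers (log2 fold change 0.37, SE 0.11, adjusted p = 0.0349). Cyp2d40 had 1523, 1702, 1088, 1479 and 930.8 in Mdm2 ASO livers, against 1004, 884.1, 730.2, 1001 and 701.0 in control ASO livers (0.62, SE 0.16, adjusted p = 0.022). For both, the lowest Mdm2 ASO liver lay below the highest control. The Cyp2d10 call was lost in 8 of 10 fits that left out a library, all but those without control ASO replicate 1 or Mdm2 ASO replicate 10 (adjusted p up to 0.0828), and with no filter on low values (adjusted p = 0.051). The Cyp2d40 call was lost without Mdm2 ASO replicate 6, 7 or 9 (adjusted p up to 0.0573). On HFHC the log2 fold changes were -0.20 for Cyp2d10 (adjusted p = 0.189) and -0.07 for Cyp2d40, neither past the threshold. Cyp2d10 differed between the diets (0.57, adjusted p = 0.011, and 0.102 with a replicate block), while Cyp2d40 did not pass (0.69, adjusted p = 0.0858) except with quantile normalization, with both copies of Mdm2 ASO replicate 6 on HFHC counted, and without Mdm2 ASO replicate 10 of either diet (adjusted p down to 0.0249). Of the 100-base stretches of Cyp2d10, 11.7% also occur in another gene, mostly Cyp2d11, so the assignment of reads from these stretches is uncertain for both genes. Cyp2d11 averaged 6.38 ± 1.82 in Mdm2 ASO livers (n = 3) and 11.8 ± 6.76 in control ASO livers (n = 4) on HFHC, and passed on neither diet. Of the 8 tested Cyp2d genes, the number that rose on CDAHFD was 2 without control ASO replicate 2 or Mdm2 ASO replicate 6, 7 or 9, and 3 or 4 in the other fits.

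**Figure D3:**
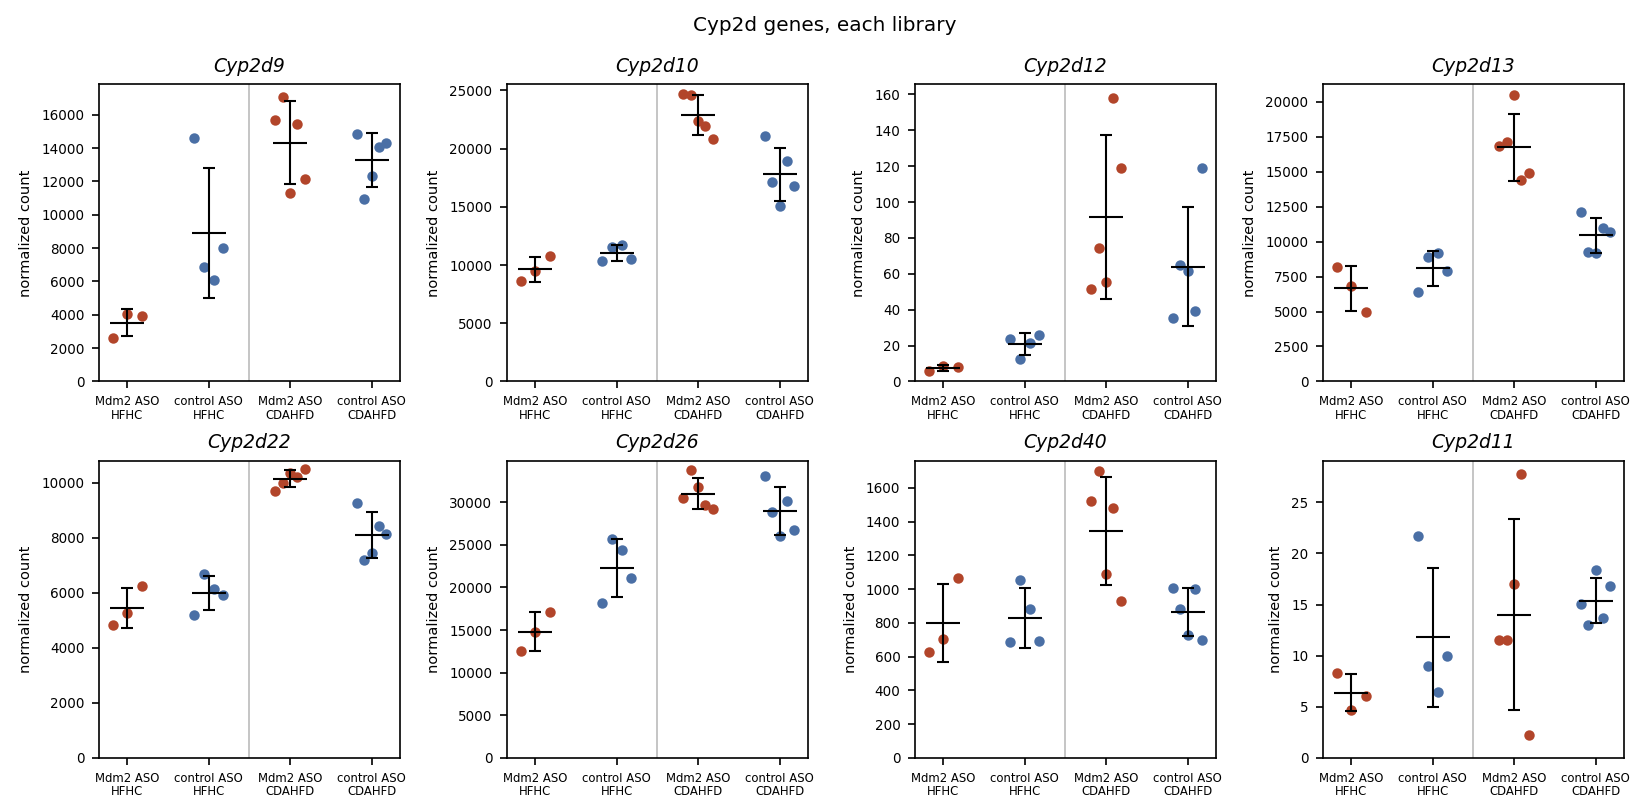
Normalized counts (vertical axes, starting at 0) of the 8 tested Cyp2d genes in each library, with Mdm2 ASO (red) left of control ASO (blue) on HFHC and then on CDAHFD, and bars for the mean ± SD. Cyp2d9, Cyp2d12 and Cyp2d26 lie lower in Mdm2 ASO livers on HFHC, and Cyp2d13 and Cyp2d22 lie higher on CDAHFD, without overlap.

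Cyp2u1, a hydroxylase of long-chain fatty acids, showed the largest fall among the members called on HFHC and the largest called difference between the diets. It had 50.9, 54.9 and 70.7 normalized counts in Mdm2 ASO livers on HFHC, against 228.1, 214.4, 151.0 and 191.9 in control ASO livers. The Mdm2 ASO livers lay below every control, at 30.0% of their mean (log2 fold change -1.73, SE 0.18, adjusted p = 9.35e-05). Counts on CDAHFD were 471.3, 560.0, 315.2, 394.4 and 286.1 in Mdm2 ASO livers, against 347.6, 308.0, 281.6, 351.2 and 310.3 in control ASO livers. There the groups overlapped, and the log2 fold change of 0.30 did not pass (adjusted p = 0.244). The difference was 2.03 (SE 0.26, adjusted p = 1.7e-05), and both the fall and the difference passed in every alternative tried.

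The Cyp2j genes encode epoxygenases and hydroxylases of arachidonic acid and other fatty acids. All 4 tested members had fold changes below 0 on both diets; 2 fell on HFHC and 1 on CDAHFD. Cyp2j9, known in mouse from brain, fell on both diets. It had 188.9, 168.4 and 135.4 normalized counts in Mdm2 ASO livers on HFHC, against 249.8, 277.3, 257.8 and 218.9 in control ASO livers, without overlap (log2 fold change -0.62, SE 0.14, adjusted p = 0.0082). The counts on CDAHFD were 80.6, 97.3, 79.4, 104.3 and 223.9 in Mdm2 ASO livers, against 232.8, 172.0, 390.8, 205.4 and 362.7 in control ASO livers (-1.26, SE 0.29, adjusted p = 0.0122). There 1 Mdm2 ASO liver, replicate 10, lay among the controls while the other 4 lay below all of them. The HFHC call was lost with hepatocyte marker centring (adjusted p = 0.0709).

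Cyp2j6 fell on HFHC, where it had 714.9, 802.0 and 867.9 normalized counts in Mdm2 ASO livers, against 1215, 1359, 1273 and 1339 in control ASO livers. The groups were narrow and did not overlap (log2 fold change -0.71, SE 0.08, adjusted p = 0.000218). Cyp2j6 averaged, on CDAHFD, 1656 ± 97.3 in Mdm2 ASO and 1827 ± 203.3 in control ASO livers (SD, n = 5 each), with a log2 fold change of -0.14 (adjusted p = 0.318). The difference between diets was 0.57 (SE 0.12, adjusted p = 0.00234). Cyp2j5 and Cyp2j8 passed on neither diet.

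Cyp2c38 and Cyp2c39 of the Cyp2c subfamily fell on both diets. Cyp2c38, an arachidonic acid epoxygenase, had 1088, 1324 and 1332 normalized counts in Mdm2 ASO livers on HFHC, against 1310, 2225, 2310 and 1899 in control ASO livers (log2 fold change -0.61, SE 0.18, adjusted p = 0.0316). The CDAHFD values were 830.5, 650.0, 691.6, 762.9 and 617.5 in Mdm2 ASO livers, against 1145, 1172, 1181, 1713 and 966.5 in control ASO livers (-0.78, SE 0.13, adjusted p = 0.00244). The groups were apart on CDAHFD, while on HFHC the lowest control lay just under 2 of the Mdm2 ASO livers and the call held in 1 of 7 fits that left out a library, that without control ASO replicate 1 (adjusted p up to 0.0912).

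Cyp2c39, a retinoic acid hydroxylase, was far lower in count. It had 45.4, 60.5 and 88.9 normalized counts in Mdm2 ASO livers on HFHC, against 78.5, 120.1, 111.1 and 114.9 in control ASO livers (log2 fold change -0.74, SE 0.25, adjusted p = 0.0464). Its values on CDAHFD were 59.7, 31.4, 42.0, 65.1 and 58.8 in Mdm2 ASO livers, against 103.0, 73.1, 71.6, 133.7 and 86.0 in control ASO livers (-0.87, SE 0.25, adjusted p = 0.0332). On CDAHFD the highest Mdm2 ASO liver stayed below the lowest control, and on HFHC the groups overlapped. The HFHC call was lost without control ASO replicate 2, 4 or 5 or Mdm2 ASO replicate 6 or 9 (adjusted p up to 0.14) and with no filter on low values, hepatocyte marker centring and edgeR (adjusted p up to 0.104), and the CDAHFD call without control ASO replicate 1 or 4 or Mdm2 ASO replicate 7 or 8 (adjusted p up to 0.0955).

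Cyp2f2, which activates naphthalene in mouse lung and is periportal in liver, was the fourth gene to fall on both diets. It had 4185, 3631 and 7290 normalized counts in Mdm2 ASO livers on HFHC, against 7073, 16800, 11720 and 7555 in control ASO livers (log2 fold change -1.08, SE 0.32, adjusted p = 0.0313). Its CDAHFD counts were 10040, 8558, 10200, 10900 and 7258 in Mdm2 ASO livers, against 16740, 15560, 9155, 12670 and 12950 in control ASO livers (-0.50, SE 0.15, adjusted p = 0.0473). On each diet a single control liver lay within the range of the Mdm2 ASO livers. The HFHC call was lost without control ASO replicate 2 or 4 or Mdm2 ASO replicate 6 or 9 (adjusted p up to 0.128). The CDAHFD call was lost in 8 of 10 such fits, all but those without control ASO replicate 3 or Mdm2 ASO replicate 9 (adjusted p up to 0.125), and with no filter on low values (adjusted p = 0.0602).

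Cyp3a enzymes oxidise many drugs and steroids, and Cyp3a11 is the main PXR-induced member of mouse liver. Cyp3a11 fell on CDAHFD, where it had 26540, 30830, 24500, 39710 and 48990 normalized counts in Mdm2 ASO livers, against 56370, 49600, 60250, 50700 and 44120 in control ASO livers (log2 fold change -0.65, SE 0.18, adjusted p = 0.0273). Mdm2 ASO replicate 10 alone reached the controls. The call was lost without control ASO replicate 1, 2 or 4 or Mdm2 ASO replicate 6, 7 or 8 (adjusted p up to 0.0751). On HFHC it had 48540, 56510 and 56930 in Mdm2 ASO livers, against 63400, 84010, 90460 and 86540 in control ASO livers, apart but just short of the threshold (-0.58, SE 0.20, adjusted p = 0.0523). It passed there by edgeR (adjusted p = 0.0165), by DESeq2 (adjusted p = 0.000139), with a mean of at least 10 as filter, with both copies of replicate 6 counted and without control ASO replicate 1. The difference between the diets was small (-0.08, SE 0.27, adjusted p = 0.877).

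Cyp3a25 fell on HFHC and Cyp3a13 rose there. Cyp3a25 had 12720, 12850 and 10960 normalized counts in Mdm2 ASO livers, against 14680, 20390, 18370 and 15670 in control ASO livers (log2 fold change -0.50, SE 0.14, adjusted p = 0.0216). Cyp3a13 had 4784, 4418 and 5352 in Mdm2 ASO livers, against 2593, 4186, 3619 and 3079 in control ASO livers (0.54, SE 0.15, adjusted p = 0.0232). In both genes the groups did not overlap. The Cyp3a25 call was lost without control ASO replicate 4 or Mdm2 ASO replicate 9 or 10 (adjusted p up to 0.0674) and with quantile normalization and hepatocyte marker centring (adjusted p up to 0.0535), and the Cyp3a13 call without control ASO replicate 5 or Mdm2 ASO replicate 10 (adjusted p up to 0.0744). Neither passed on CDAHFD, with log2 fold changes of -0.12 for Cyp3a25 (adjusted p = 0.523) and 0.27 for Cyp3a13 (adjusted p = 0.261).

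Of 10 members listed as CAR or PXR targets, 2 rose and none fell on HFHC, against 16.8% and 13.8% of all genes. On CDAHFD none rose and 1, Cyp3a11, fell, against 6.12% and 6.86% of all genes. The medians of the 10 were 0.28 on HFHC and 0.22 on CDAHFD. At an unadjusted p under 0.05, 1 was lower on HFHC and 3 were higher on CDAHFD. Both edgeR and DESeq2 called 3 higher and 1 lower on HFHC, and on CDAHFD edgeR called 0 higher and DESeq2 2, with 1 lower by each. The other riser beside Cyp3a13 was Cyp2c54, an epoxygenase of arachidonic and linoleic acid. It had 4481, 2823 and 3046 normalized counts in Mdm2 ASO livers on HFHC, against 838.2, 2509, 1151 and 1223 in control ASO livers, with no overlap (log2 fold change 1.36, SE 0.32, adjusted p = 0.0106). The CDAHFD counts were 5577, 3961, 5237, 4365 and 4058 in Mdm2 ASO livers, against 4701, 3273, 1358, 1996 and 3330 in control ASO livers, short of the threshold (0.78, SE 0.25, adjusted p = 0.0597). It passed there by DESeq2 (adjusted p = 0.0387), with quantile normalization (adjusted p = 0.0444) and without control ASO replicate 1 (adjusted p = 0.0162). Cyp2b10, the usual reporter gene of CAR, was spread widely. It had 6.48, 56.8 and 429.4 in Mdm2 ASO livers on HFHC, against 4.13, 32.6, 27.0 and 8.99 in control ASO livers, with a fold change of 1.98 and an SE of 1.21 on the log2 scale (adjusted p = 0.251). For CDAHFD the counts were 147.7, 56.5, 19.3, 122.5 and 14.7 in Mdm2 ASO livers, against 35.4, 12.0, 9.17, 29.8 and 5.61 in control ASO livers (1.72, SE 0.66, adjusted p = 0.1). Its groups overlapped on both diets, and on HFHC replicate 10 held most of the Mdm2 ASO signal. Whether Cyp2b10 passed depended on the setting. On HFHC it passed by edgeR (3.18, adjusted p = 0.0476), by DESeq2 (3.17, adjusted p = 0.0495) and without Mdm2 ASO replicate 6 (3.47, adjusted p = 0.0232), and the lowest fold change over the settings was 0.50. It passed on CDAHFD by DESeq2 (1.98, adjusted p = 0.0459) and without Mdm2 ASO replicate 10 (2.15, adjusted p = 0.0375).

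Cyp2a5, a coumarin hydroxylase that also oxidises bilirubin, showed the largest rise among the members called on CDAHFD. It had 11380, 28180, 18680, 31960 and 22040 normalized counts in Mdm2 ASO livers, against 9094, 5904, 5523, 8146 and 13390 in control ASO livers. One pair of libraries overlapped, Mdm2 ASO replicate 6 and control ASO replicate 5, and the mean was 266.9% of control (log2 fold change 1.41, SE 0.27, adjusted p = 0.00475). On HFHC it had 3788, 14130 and 14250 in Mdm2 ASO livers, against 4627, 13680, 13610 and 7332 in control ASO livers, with a log2 fold change of 0.04 (SE 0.51, adjusted p = 0.967). The lowest of these was replicate 6, the library with the high albumin share, and the difference between diets of 1.37 did not pass (SE 0.60, adjusted p = 0.109), except with both copies of that library counted (adjusted p = 0.0458) and without control ASO replicate 1 on HFHC (adjusted p = 0.0472). Of its 100-base stretches 12.1% also occur in another gene, mostly Cyp2a4, so the pair is uncertain to that extent.

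Cyp2a12, a steroid hydroxylase, fell on HFHC. It had 7001, 8650 and 10690 normalized counts in Mdm2 ASO livers, against 10800, 17160, 14360 and 11670 in control ASO livers, just without overlap (log2 fold change -0.62, SE 0.19, adjusted p = 0.0328). The call was lost without control ASO replicate 2 or 4 or Mdm2 ASO replicate 6 or 9 (adjusted p up to 0.0978). On CDAHFD the log2 fold change was -0.26 (adjusted p = 0.117), and it passed without control ASO replicate 3 (adjusted p = 0.031) and with quantile normalization (adjusted p = 0.0355). Cyp2c67 fell slightly on HFHC, where it had 1929, 1680 and 1908 in Mdm2 ASO livers, against 2434, 2169, 2226 and 2243 in control ASO livers (-0.30, SE 0.08, adjusted p = 0.0162). Its call was lost without Mdm2 ASO replicate 9 (adjusted p = 0.0767) and with hepatocyte marker centring (adjusted p = 0.337), and 23.7% of its 100-base stretches occur in another gene, mostly Cyp2c69.

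**Figure D4:**
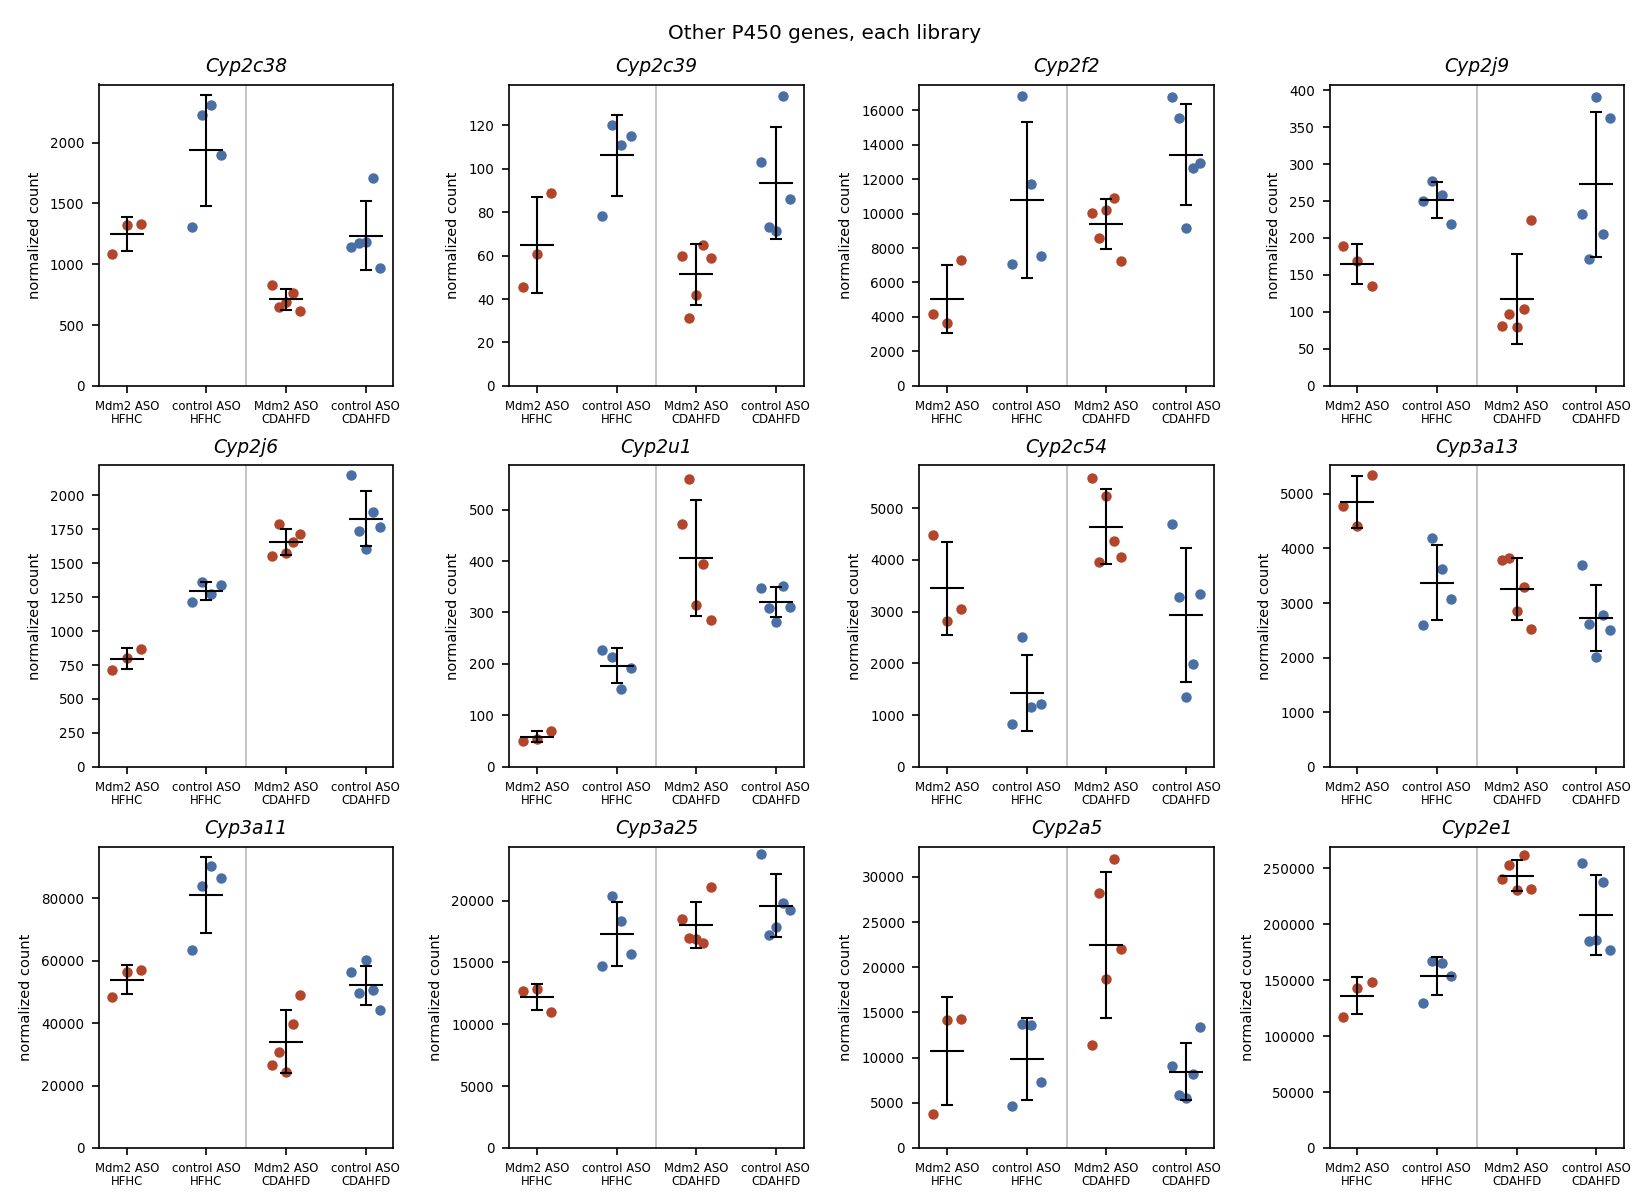
Normalized counts (vertical axes, starting at 0) of 12 further P450 genes in each library, with Mdm2 ASO (red) left of control ASO (blue) on HFHC and then on CDAHFD, and bars for the mean ± SD. Cyp2u1 and Cyp2j6 lie lower in Mdm2 ASO livers on HFHC and overlap on CDAHFD, and 4 of 5 Mdm2 ASO livers lie below all controls for Cyp2j9 on CDAHFD.

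The 3 AhR targets in the set, Cyp1a1, Cyp1a2 and Cyp1b1, passed on neither diet by limma-trend or edgeR; at an unadjusted p under 0.05 and by DESeq2 1 was lower on HFHC and 0 were called on CDAHFD. Their fold changes were all below 0 on HFHC, with a median of -0.30, and all above 0 on CDAHFD, with a median of 0.54. Cyp1a2, which oxidises caffeine and aromatic amines, had 1818, 2786 and 3437 normalized counts in Mdm2 ASO livers on HFHC, against 2962, 4741, 4429 and 3828 in control ASO livers (log2 fold change -0.60, SE 0.22, adjusted p = 0.0656). Cyp1a2 averaged, on CDAHFD, 12120 ± 1474 in Mdm2 ASO and 10950 ± 2486 in control ASO livers (SD, n = 5 each), and the difference between diets was 0.77 (SE 0.27, adjusted p = 0.0455). This call was lost in 12 of 17 fits that left out a library (adjusted p up to 0.164); it held without control ASO replicate 1 or Mdm2 ASO replicate 10 on HFHC and without control ASO replicate 1 or 2 or Mdm2 ASO replicate 6 on CDAHFD. It was also lost with no filter on low values, hepatocyte marker centring, edgeR and a replicate block (adjusted p up to 0.076). The HFHC change of Cyp1a2 passed by DESeq2, with quantile normalization, with both copies of replicate 6 counted and without control ASO replicate 1 or Mdm2 ASO replicate 10 (adjusted p down to 0.0251). Cyp1a1, the most AhR-dependent of the 3, stayed low, at 13.1 ± 5.36 in Mdm2 ASO livers (n = 3) and 16.1 ± 6.34 in control ASO livers (n = 4) on HFHC, and at 29.1 ± 5.78 in Mdm2 ASO and 22.6 ± 13.3 in control ASO livers on CDAHFD (n = 5 each). Cyp1b1 had log2 fold changes of -0.30 on HFHC (adjusted p = 0.546) and 0.59 on CDAHFD (adjusted p = 0.227), where it passed without Mdm2 ASO replicate 7 (0.88, adjusted p = 0.0341).

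Of 9 members listed as female-biased, 6 were tested and none passed on either diet by limma-trend, edgeR or DESeq2 (at an unadjusted p under 0.05, 0 on HFHC and 1 on CDAHFD), with a median log2 fold change of -0.48 on HFHC and -0.42 on CDAHFD. Over all genes 30.6% passed on HFHC and 13.0% on CDAHFD by limma-trend. Cyp2b9 had 4090, 2923 and 2874 normalized counts in Mdm2 ASO livers on HFHC, against 355.1, 3249, 2545 and 1863 in control ASO livers, where replicate 1 was far below the others (1.09, SE 0.63, adjusted p = 0.227). On CDAHFD it averaged 967.9 ± 448.8 in Mdm2 ASO and 1218 ± 769.4 in control ASO livers (SD, n = 5 each; -0.11, adjusted p = 0.905). Cyp2a4 averaged 423.4 ± 55.1 in Mdm2 ASO livers (n = 3) and 329.0 ± 197.6 in control ASO livers (n = 4) on HFHC. Cyp2b13, Cyp2c40, Cyp2c69 and Cyp3a44 were lower still and variable. Cyp2b13 passed on HFHC without control ASO replicate 1 (-1.69, adjusted p = 0.0105), and Cyp3a44 on CDAHFD without Mdm2 ASO replicate 10 (-2.45, adjusted p = 0.0379) and with no filter on low values (adjusted p = 0.0436). Cyp3a16 and the near-identical pair Cyp3a41a and Cyp3a41b were not tested, with at most 2.16, 1.07 and 2.42 in any library. Cyp2c40 and Cyp2c69 share 34.4% and 35.4% of their 100-base stretches with other genes, so how their reads were assigned is uncertain.

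Of 8 pericentral P450 genes, 1 rose on HFHC (Cyp2c54), against 16.8% of all genes. On CDAHFD 1 rose (Cyp2a5) and 1 fell (Cyp3a11), against 6.12% and 6.86% of all genes. The medians of the 8 were 0.08 on HFHC and 0.32 on CDAHFD. The remaining members of that list were Cyp2c29, Cyp2c37 and Cyp2c50, epoxygenases, beside Cyp1a2 and Cyp2e1, and passed on neither diet. Cyp2c29 had 5132, 7376 and 9483 normalized counts in Mdm2 ASO livers on HFHC, against 2214, 14850, 8873 and 4503 in control ASO livers, which span the Mdm2 ASO livers on both sides. Its log2 fold changes were 0.24 on HFHC (adjusted p = 0.775) and 0.40 on CDAHFD (adjusted p = 0.459). Cyp2c37 had changes of 0.13 on HFHC (adjusted p = 0.844) and 0.52 on CDAHFD (adjusted p = 0.138), and Cyp2c50 of 0.32 (adjusted p = 0.341) and 0.17 (adjusted p = 0.594). Without control ASO replicate 1 Cyp2c37 passed on CDAHFD (0.70, adjusted p = 0.0296), and without control ASO replicate 2 Cyp2c50 passed on HFHC (0.54, adjusted p = 0.0435).

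Of 10 other pericentral genes, 4 fell on HFHC (Glul, Rhbg, Axin2 and Lhpp), with a median of -0.66, and 2 rose on CDAHFD (Oat and Lect2), with a median of 0.08. Over all genes 13.8% fell on HFHC and 6.12% rose on CDAHFD. The Lhpp call was lost without control ASO replicate 4 or Mdm2 ASO replicate 9 (adjusted p up to 0.0519). The Oat call held in 2 of 10 fits that left out a library, without control ASO replicate 1 or 4 (adjusted p up to 0.097), and was lost with no filter on low values (adjusted p = 0.0519). The Lect2 call held in 3 of them, without control ASO replicate 1 or Mdm2 ASO replicate 6 or 8 (adjusted p up to 0.128), and was lost with no filter, quantile normalization and hepatocyte marker centring (adjusted p up to 0.0963). Glul, the glutamine synthetase of the innermost hepatocytes, had 12960, 19320 and 20810 normalized counts in Mdm2 ASO livers on HFHC, against 39500, 36320, 41580 and 37440 in control ASO livers (log2 fold change -1.16, SE 0.17, adjusted p = 0.000956). It averaged 38810 ± 4049 in Mdm2 ASO and 40480 ± 5182 in control ASO livers on CDAHFD (SD, n = 5 each; -0.06, adjusted p = 0.798). The groups were far apart on HFHC and overlapped on CDAHFD, and the difference was 1.10 (adjusted p = 0.000713). The pericentral P450 genes had no fallen member on HFHC by limma-trend (2 at an unadjusted p under 0.05, 1 by edgeR and 2 by DESeq2), where 4 of 10 other pericentral genes fell; the difference between these lists was not tested.

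Por, the oxidoreductase that serves all of these P450 enzymes, rose on CDAHFD, where it had 16050, 13320, 11760, 16580 and 16390 normalized counts in Mdm2 ASO livers, against 9042, 7594, 7457, 10530 and 7843 in control ASO livers (log2 fold change 0.80, SE 0.12, adjusted p = 0.00137). All Mdm2 ASO livers lay above all controls. On HFHC it had 4890, 9310 and 12320 in Mdm2 ASO livers, against 5298, 7316, 7036 and 6161 in control ASO livers (0.37, SE 0.27, adjusted p = 0.338), with replicate 6 as the low library. Without that library the HFHC change was 0.74 and passed (adjusted p = 0.00759). The difference between diets did not pass (0.44, adjusted p = 0.302). Of the 5 electron supply genes, Cyb5r3 (-0.52, adjusted p = 0.0145) and Pgrmc1 (-0.55, adjusted p = 0.0259) fell on HFHC and none rose by limma-trend, edgeR, DESeq2 or at an unadjusted p under 0.05 (0 of 5), and Por was the 1 that passed on CDAHFD. Over all genes 13.8% fell and 16.8% rose on HFHC, and 13.0% passed on CDAHFD. The Pgrmc1 call was lost without control ASO replicate 2, 4 or 5 or Mdm2 ASO replicate 6 or 9 (adjusted p up to 0.0689), and both HFHC calls with hepatocyte marker centring (adjusted p up to 0.0888). Cyb5a, which helps electron transfer to several P450 enzymes, passed on neither diet, with -0.31 on HFHC (adjusted p = 0.0872) and 0.15 on CDAHFD (adjusted p = 0.356), though DESeq2 called it lower on HFHC (adjusted p = 0.0087).

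Heme is the prosthetic group of every P450 enzyme. Of 9 genes of its synthesis and breakdown analysed, 4 fell on HFHC (Alad, Uros, Urod and Blvrb) and 1 rose (Hmox1), while 3 rose on CDAHFD (Alas1, Alad and Blvrb) and 1 fell (Hmox1). Over all genes 13.8% fell and 16.8% rose on HFHC, and 6.12% rose and 6.86% fell on CDAHFD. Alas1, the rate-limiting enzyme of heme synthesis in liver, had 25310, 27660, 33780, 33350 and 24160 normalized counts in Mdm2 ASO livers on CDAHFD, against 14950, 11100, 12940, 13690 and 21440 in control ASO livers (log2 fold change 0.98, SE 0.16, adjusted p = 0.00181). On HFHC it had 5316, 17260 and 12730 in Mdm2 ASO livers, against 7045, 9312, 13100 and 12500 in control ASO livers (0.05, adjusted p = 0.935). The groups were apart on CDAHFD and overlapped on HFHC, yet the difference did not pass (0.93, SE 0.40, adjusted p = 0.0989), except without Mdm2 ASO replicate 9 on HFHC (1.29, adjusted p = 0.0244) and with both copies of replicate 6 counted (1.18, adjusted p = 0.0402).

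Hmox1, heme oxygenase, degrades heme and is high in macrophages that clear red cells. It had 3449, 4846 and 3148 normalized counts in Mdm2 ASO livers on HFHC, against 596.6, 779.1, 720.5 and 804.5 in control ASO livers (log2 fold change 2.38, SE 0.15, adjusted p = 3.91e-06). Hmox1 values on CDAHFD were 412.6, 624.9, 390.0, 612.6 and 734.0 in Mdm2 ASO livers, against 616.9, 967.4, 924.7, 1181 and 980.5 in control ASO livers (-0.76, SE 0.19, adjusted p = 0.0181). The difference of -3.14 had an adjusted p of 5.73e-07. On HFHC the summed level of 5 red blood cell markers ran between 6872 and 16510 in Mdm2 ASO livers and between 1878 and 3393 in control ASO livers, and that of 6 Kupffer cell markers between 10600 and 14240 in Mdm2 ASO livers and between 3714 and 8032 in control ASO livers. Their part in the result was not tested. Alad, the second enzyme of the pathway, fell on HFHC (-0.40, adjusted p = 0.00693) and rose on CDAHFD (0.30, adjusted p = 0.0369), a difference of 0.70 (adjusted p = 0.000511). Its CDAHFD call held in 2 of 10 fits that left out a library, without control ASO replicate 5 or Mdm2 ASO replicate 6 (adjusted p up to 0.092), and was lost with quantile normalization and hepatocyte marker centring (adjusted p up to 0.112). Blvrb, a biliverdin reductase, fell on HFHC (-0.37, adjusted p = 0.0154) and rose on CDAHFD (0.39, adjusted p = 0.0262), where the call was lost without control ASO replicate 4 or Mdm2 ASO replicate 8 or 9 (adjusted p up to 0.0671). With hepatocyte marker centring, the HFHC calls of Alad, Blvrb, Uros and Urod were lost (adjusted p up to 0.26), and that of Urod also without Mdm2 ASO replicate 9 (adjusted p = 0.061).

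Of 12 regulators of P450 genes, 3 rose and 2 fell on HFHC, and on CDAHFD none passed by limma-trend, edgeR or DESeq2, nor at an unadjusted p under 0.05 (0 of 12). The shares of all genes by limma-trend were 16.8% risen and 13.8% fallen on HFHC, and 13.0% in either direction on CDAHFD. Ahrr, the AhR repressor, had 25.9, 35.0 and 24.2 normalized counts in Mdm2 ASO livers on HFHC, against 2.06, 4.49, 1.08 and 7.00 in control ASO livers (log2 fold change 3.02, SE 0.54, adjusted p = 0.00251). Tiparp, an AhR-induced repressor of AhR, had 230.6, 419.9 and 877.0 in Mdm2 ASO livers, against 124.9, 141.4, 113.3 and 130.9 in control ASO livers (1.78, SE 0.36, adjusted p = 0.00462). In both, every Mdm2 ASO liver lay above every control. Nr3c1, the glucocorticoid receptor, rose by 0.33 (adjusted p = 0.0159), a call that was lost without Mdm2 ASO replicate 9 (adjusted p = 0.0742) or with hepatocyte marker centring (adjusted p = 0.0798). The immune marker sums given above moved with these changes, and their part was not tested.

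Cebpa and Foxa2, transcription factors of the hepatocyte program, fell on HFHC. Cebpa had 5778, 6686 and 5532 normalized counts in Mdm2 ASO livers, against 7944, 8498, 8514 and 8054 in control ASO livers (log2 fold change -0.46, SE 0.09, adjusted p = 0.00423, and 0.0858 with hepatocyte marker centring). Foxa2 had 622.3, 291.3 and 90.9 in Mdm2 ASO livers, against 619.3, 748.8, 995.6 and 929.4 in control ASO livers (-1.67, SE 0.51, adjusted p = 0.035), and its Mdm2 ASO livers were widely spread. Its change was -0.93 without Mdm2 ASO replicate 10 and -2.31 without Mdm2 ASO replicate 6, and its call was lost without control ASO replicate 2, 4 or 5 or Mdm2 ASO replicate 9 (adjusted p up to 0.088), by edgeR and DESeq2, and with both copies of replicate 6 counted (adjusted p up to 0.102). The receptor genes Ahr, Nr1i2 and Nr1i3 passed on neither diet by limma-trend with all libraries in. On HFHC the log2 fold changes were 0.43 for Ahr (adjusted p = 0.103), -0.03 for Nr1i2, which encodes PXR (adjusted p = 0.88), and -0.18 for Nr1i3, which encodes CAR (adjusted p = 0.543). Without Mdm2 ASO replicate 6 the change of Ahr was 0.66 and passed (adjusted p = 0.00443). On CDAHFD they were -0.06 for Ahr (adjusted p = 0.784), -0.05 for Nr1i2 (adjusted p = 0.801) and 0.08 for Nr1i3 (adjusted p = 0.687). Their partner Rxra (0.13, adjusted p = 0.383 on HFHC and 0.25, adjusted p = 0.192 on CDAHFD) and Hnf4a (-0.22, adjusted p = 0.207 and -0.17, adjusted p = 0.217) did not pass either, though Rxra did on HFHC with quantile normalization (0.30, adjusted p = 0.00701). Of 6 regulators of sex-dependent expression none passed on HFHC by limma-trend, edgeR or DESeq2 (1 at an unadjusted p under 0.05) and Onecut1 rose on CDAHFD (1.48, SE 0.34, adjusted p = 0.0128). On CDAHFD 1 of the 6 was also lower at an unadjusted p under 0.05, and edgeR and DESeq2 each called 1 lower.

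**Figure D5:**
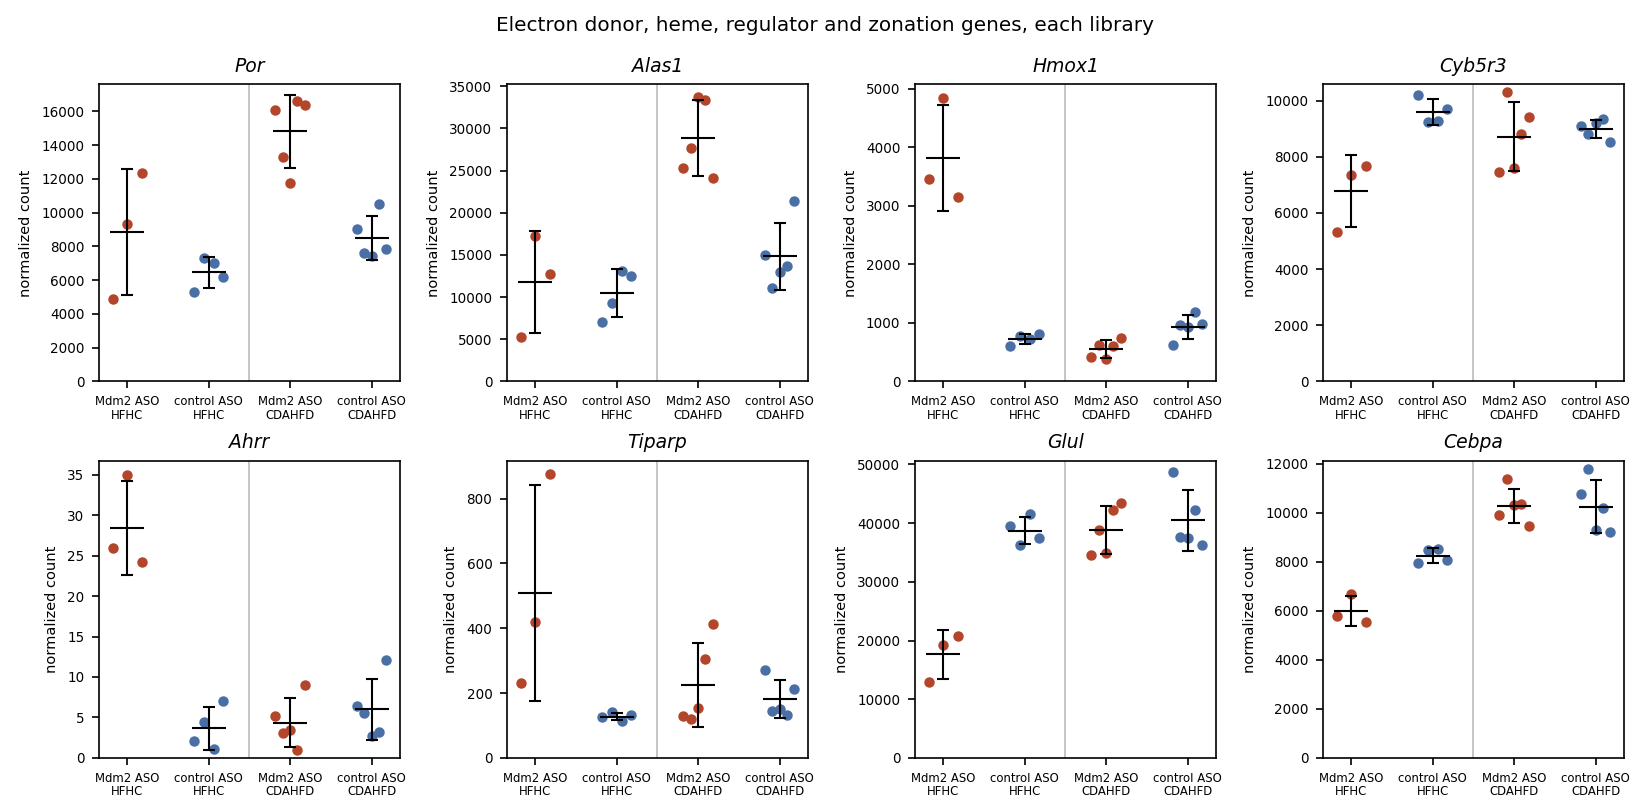
Normalized counts (vertical axes, starting at 0) of 8 genes that supply, serve or regulate P450 enzymes, in each library, with Mdm2 ASO (red) left of control ASO (blue) on HFHC and then on CDAHFD, and bars for the mean ± SD. Por and Alas1 lie higher in Mdm2 ASO livers on CDAHFD, and on HFHC Hmox1 and Ahrr lie higher and Glul and Cebpa lower, in each case without overlap.

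Acute phase and cytokine genes, which are known to accompany low P450 expression in inflamed liver, gave 6 risen and 4 fallen of 12 on HFHC and 1 of each on CDAHFD. All genes gave 16.8% risen and 13.8% fallen on HFHC, and 6.12% and 6.86% on CDAHFD. The HFHC risers were Il6, Il1b, Tnf, Saa3, Stat3 and Socs3, and the fallers Saa1, Saa2, Orm1 and Orm2. Il6 had 19.4, 18.9 and 14.1 normalized counts in Mdm2 ASO livers on HFHC, against 1.03, 2.25, 0 and 0 in control ASO livers. Socs3, a feedback inhibitor of this cytokine pathway, rose on HFHC (1.25, SE 0.15, adjusted p = 0.000244) and on CDAHFD (1.01, SE 0.31, adjusted p = 0.0434), where the call was lost without control ASO replicate 2, 3 or 4 or Mdm2 ASO replicate 7, 8 or 10 (adjusted p up to 0.112) and with no filter on low values, hepatocyte marker centring and DESeq2 (adjusted p up to 0.0546). Lcn2 fell on CDAHFD (-1.02, adjusted p = 0.00984).

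Among the marker lists of other cells, 2 of 6 Kupffer cell, 2 of 6 B and T cell, 3 of 5 endothelial and 3 of 5 stellate cell markers rose on HFHC and 3 of 5 cholangiocyte markers fell. On CDAHFD 2 of 13 hepatocyte markers rose, 1 fell, and 1 Kupffer cell marker fell. Beside these stand 16.8% of all genes that rose and 13.8% that fell on HFHC, and 6.12% and 6.86% on CDAHFD. Markers of kidney and lung, tissues that also make P450 enzymes, were at or near 0. Their summed levels were at most 2.84 in Mdm2 ASO and 1.12 in control ASO livers on HFHC, and 4.52 in Mdm2 ASO and 1.85 in control ASO livers on CDAHFD. Sftpc and Scgb1a1 had no read in any HFHC library.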

How the data were processed

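Liver mRNA of 18 samples was sequenced. Per the submitters' processing notes, STAR 2.7.10b, featureCounts and Subread 2.0.3 were used, with GRCm39. The deposited signal is TMM-normalized counts per the labels, 1 table per diet with 33235 genes and 0 columns of other series. Every value is a whole number times 1 constant per library (100% of values), which gives reads back; whether counting used strand is not given in the sources used here. Mdm2 ASO replicates 6 and 7 on HFHC differ in 0 genes and counted once. The test was limma-trend (limma 3.58.1, R 4.3.3) on log2(value + 0.5), for genes that reached 1 in the number of libraries of the smaller group (3 on HFHC, 5 on CDAHFD), Benjamini-Hochberg adjusted over all genes of a table. An interaction term over genes passing in both tables tested whether the responses differed between diets. Alternatives were pseudocounts of 1 and 5, other filters, quantile normalization, centring on hepatocyte markers, edgeR 4.0.16 and DESeq2 1.42.0 on recovered reads, both copies counted, a replicate block and leaving out each library. On those reads edgeR called 2994 genes positive and 2341 negative on HFHC, and 1034 and 1152 on CDAHFD. The models were tested on simulated data.

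The members and all gene lists were chosen with earlier results of these data known. Named were Mdm2, per diet the 8 largest rises and falls past the threshold, the 6 members of highest mean, the 5 smallest p in each direction of the difference, members of the female-biased and zonation lists, and up to 4 called genes per other list by p, with Por, Cyb5a, Alas1, Ahr, Nr1i2, Nr1i3, Rxra and Hnf4a always. Outside this rule, chosen after their values were seen, are Cyp2c67, Cyp2b10, Cyp1a1, Cyp1b1, Cyp2d11, Foxa2 and further list genes named only as counted. Exonic lengths, with GENCODE M21 on GRCm38, were found for 60 members (none for Cyp2d13). Genes with at least 10% of their 100-base stretches in another gene, 10 members, have uncertain read assignment. Promoters are RefSeq's on GRCm38.p6 and carry the printed coordinates; other gene positions are not used here. The hepatocyte marker Tf and the red blood cell marker Hbb-bs were not analysed here. A gene of the heme list is not reported here. Python 3.11.15 was used for sequences and figures.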

Additional observations from a re-analysis of the deposited data

Results flagged for a closer look

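In 10 of 109 sets of 4 or 5 libraries, 1 lay further from the others than Dixon's ratio allows at the 95% level. Each set held 1 P450 gene in 1 group, and not all members were covered. For normally spread values chance gives about 1 in 20. That rate does not hold where all other libraries had 0, as for Cyp3a44, Cyp3a41b, Cyp3a16 and Cyp3a41a. The share was therefore not compared with it. On CDAHFD, Mdm2 ASO replicate 10 was highest for Cyp2j9 (223.9 normalized counts, the others at most 104.3), Cyp2c67 (2639, the others at most 2160) and Cyp3a44 (2.26, the others 0). Mdm2 ASO replicate 6 on CDAHFD was lowest for Cyp2a4 (63.9, the others at least 167.8) and highest for Cyp2c69 (5.24, the others at most 1.13). Control ASO replicate 4 on CDAHFD was highest for Cyp2c38 (1713, the others at most 1181) and Cyp3a41b (2.42, the others 0). Control ASO replicate 2 was highest for Cyp2c40 on HFHC (48.3, the others at most 11.9) and Cyp3a16 on CDAHFD (1.85, the others 0), and control ASO replicate 1 on CDAHFD for Cyp3a41a (1.07, the others 0).

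By limma-trend, the response differed between the diets, as the CDAHFD effect minus the HFHC effect on the log2 scale, for Cyp2u1 (2.03), Cyp2d12 (1.92), Cyp2d9 (1.37), Cyp2d13 (0.98), Cyp1a2 (0.77), Cyp2d26 (0.69), Cyp2j6 (0.57), Cyp2d10 (0.57) and Cyp2d22 (0.47).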

How the results depend on the processing

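Of 14 calls on members on HFHC, 10 on CDAHFD and 9 of the difference, 5, 4 and 4 held in every alternative, and no value of a named gene changed sign while called. Leaving out libraries in turn, 1 to 3 members rose and 5 to 15 fell on HFHC, 3 to 7 rose and 2 to 6 fell on CDAHFD, and 7 to 10 differed positively and 0 to 1 negatively between diets. The library that gave 1 on the negative side when left out was Mdm2 ASO replicate 10 on CDAHFD. Over all genes on HFHC, 2932 positive and 2399 negative calls became 2482 and 3725 with quantile normalization, which moved the median to -0.11, and 2384 and 894 with hepatocyte marker centring. On CDAHFD 1028 positive calls became 596 with that centring, and for the difference 1606 positive and 2226 negative became 2540 and 1988 with quantile normalization and 650 and 1801 with the centring. The causes were not tested. Same-numbered libraries of the 2 diets were no pairs by the labels, and 7 such numbers gave correlations of -0.07 to 0.105, 1 of them over 0.1, with 4 of 7 libraries closest to their own number. A replicate block gave 6 members with a positive difference, 5 of the 9 and Cyp1b1. With 3 Mdm2 ASO libraries on HFHC, small changes of variable genes cannot be seen, and no level was compared between diets.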
